A study of Mus musculus with 8 samples.

Results

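The subject is the response of wild-type (WT) mouse embryonic fibroblasts to interleukin 6 (IL-6), read across every gene that could be tested and across named gene functions. It was taken from the labels alone: 2 libraries of WT fibroblasts kept for 24 h with IL-6 at 100 ng/ml were set against 2 libraries of WT fibroblasts kept for 24 h without it, so that 4 of the 8 libraries of the series make the comparison. Mouse embryonic fibroblasts (MEFs) are connective-tissue cells grown out of embryos. The other 4 libraries came from Arid5a-/- fibroblasts (KO), which are labelled as lacking the RNA-binding protein gene Arid5a, under the same pair of treatments. The KO libraries entered the fit to estimate the spread between libraries and are set beside the WT values where the responses are compared. The series was designed to look for long noncoding RNAs of IL-6 and Arid5a signalling. The strain, the number of embryos and the passage are not given in the sources used here, and neither is a statement that 2 libraries of a group were separate cultures. The p-values therefore speak only of differences among these libraries, and their spread may be technical.

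IL-6 binds its receptor chain Il6ra together with the shared signalling chain gp130 (Il6st), which carries the Janus kinases. The kinases phosphorylate the transcription factor STAT3, which enters the nucleus and switches on its targets, among them Socs3, whose protein blocks gp130 and so limits the signal. The cytokine is best known for driving the acute-phase response of the liver, the secretion of defence and scavenger proteins into plasma, and in fibroblasts it acts on matrix, inflammation and bone turnover.

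Values are FPKM (fragments counted per length of transcript and per depth of library), summed over the transcripts of a gene. Of 55358 genes, 13693 reached 1 FPKM in at least 2 of the 8 libraries and were tested with limma on log2(FPKM + 1). A change is the IL-6 mean minus the untreated mean on that scale, with its standard error and 2 libraries in each group, and a gene was called when its Benjamini-Hochberg adjusted p was under 0.05. The scale understates the change of genes near 1 FPKM. The 4 WT libraries summed to 553967 to 584995 FPKM, held 12570 to 12699 genes at 1 FPKM or more, and stood at an estimated 39500000 to 42600000 fragments. The 2 untreated libraries correlated across genes at 0.9927 and the 2 IL-6 libraries at 0.9930, against 0.9856 to 0.9870 between treatments. Of 14 fibroblast markers, 13 stood at 1 FPKM or more, and their summed level was 9088 to 9303 FPKM untreated and 7744 to 7914 FPKM with IL-6. S100a4 (5100 and 4951 and then 4465 and 4417 FPKM) and Vim (2288 and 2183 and then 1765 and 1746 FPKM) held the larger part. Of 13 markers tested, 2 were called higher, Col3a1 among them, and 6 lower, against 8.3% and 7.41% of all genes tested. Of 15 macrophage markers, 3 reached 1 FPKM, with a summed level of 8.03 to 8.68 FPKM untreated and 9.12 to 9.51 FPKM with IL-6, and Adgre1, Itgam and Cx3cr1 were listed at 0. The epithelial list held 2 of 11 markers at 1 FPKM, the endothelial list 1 of 10, the cartilage list 3 of 10, the skeletal muscle list 0 of 10 and the pluripotency list 0 of 6. Neural and glial markers summed to 109 to 109.7 FPKM untreated and 155 to 159 FPKM with IL-6, of which Stmn2 (a tubulin regulator, 82.6 and 85.1 and then 135 and 135 FPKM) held the larger part, while Rbfox3 and Snap25 were listed at 0. The part of these marker shifts in the results was not tested.

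The WT response was broad and mostly small. With IL-6, 2150 of the 13693 genes (15.7%) were called, 1136 higher (8.3%) and 1014 lower (7.41%), and the median change of all genes tested was -0.0020. At an unadjusted p under 0.05 there were 3993. Both IL-6 libraries lay outside the range of both untreated libraries for all 2150 called genes and for 7709 (56.3%) of the genes tested. Where this is repeated below for named called genes, it follows from their calls and adds no further support. Fewer genes were called whichever 1 of the 8 libraries was left out, also where it was a KO library. A fit without 1 library has less data, so a lost call does not show that it rested on that library. The total was 1312 without untreated library 1, 1197 without untreated library 2, 1183 without IL-6 library 1 and 1165 without IL-6 library 2. When the libraries were scaled to equal totals, 34.8% of calls were higher, against 52.8% as deposited; the IL-6 libraries held the larger totals. In a bulk library, fewer cells of a type and less RNA per cell cannot be told apart.

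**Figure D1:**
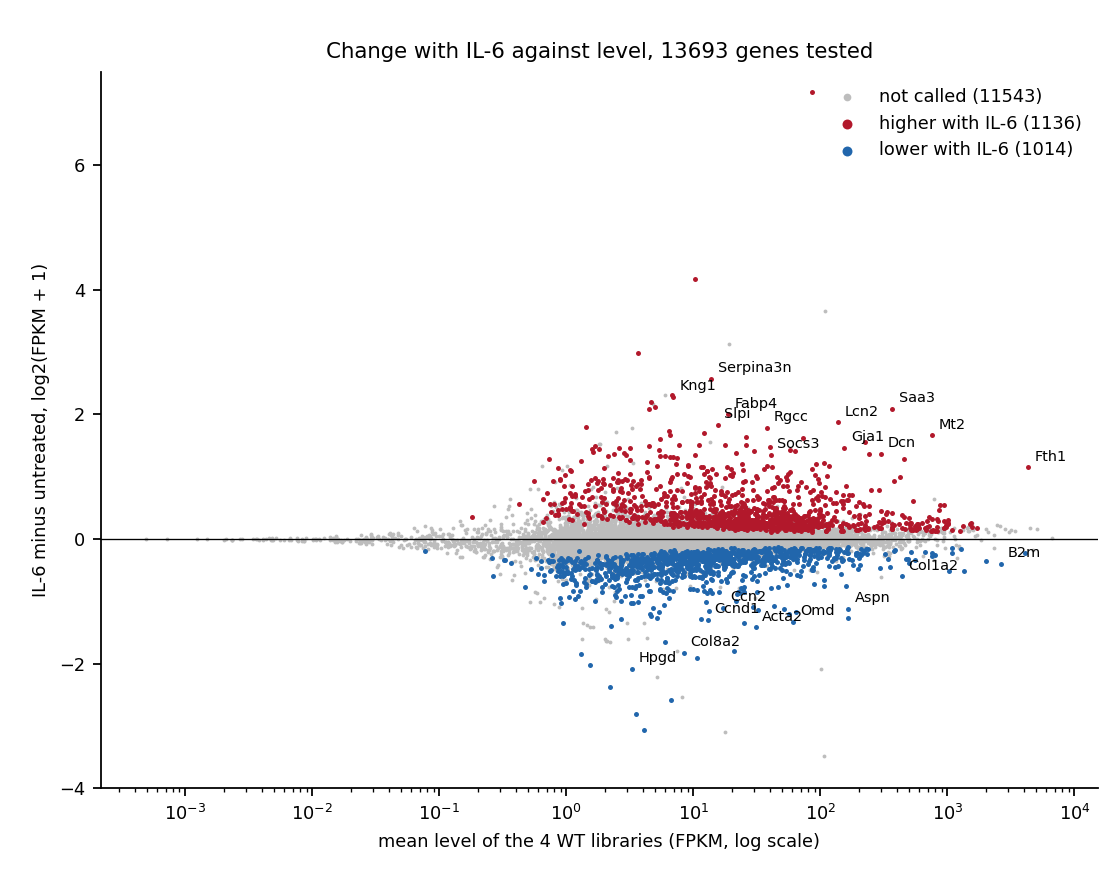
Each point is 1 of the 13693 genes tested, placed by its mean level over the 4 WT libraries (FPKM, log axis) and its change with IL-6 on the log2(FPKM + 1) scale, with the 1136 genes called higher and the 1014 called lower in colour; a gene at 0 in all 4 cannot be drawn on the log axis. The large changes lie mostly at low and middle levels, and the rises reach farther from 0 than the falls.

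Large rises outnumbered large falls. A change of at least 2-fold on the FPKM + 1 scale was seen in 104 called genes that were higher and 40 that were lower. Between 1.5 and 2 fold there were 190 higher and 143 lower, and under 1.25 fold 494 higher and 411 lower. The balance turned with the level of expression. Among genes averaging 100 FPKM or more, 18.3% were called higher and 8.61% lower, whereas among genes under 5 FPKM 184 of 4090 were higher and 307 lower. These counts use the deposited values, whose totals were larger with IL-6. Scaled to equal totals, 818 genes were called higher and 1530 lower over all levels, and the classes of size and level were not recounted.

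**Figure D2:**
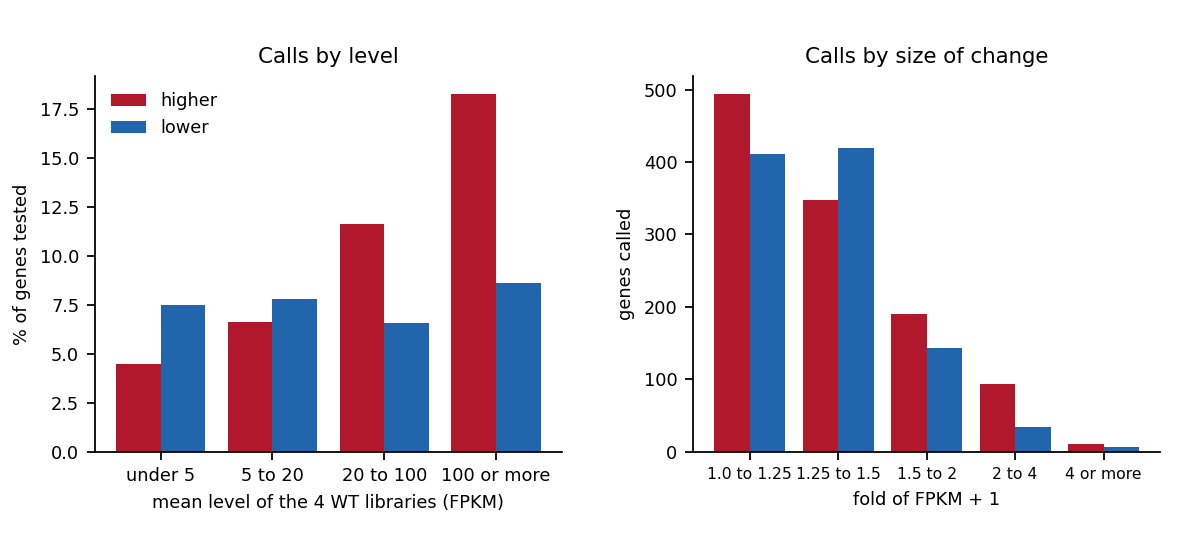
Left, the percentage of tested genes called higher or lower in 4 classes of mean WT level (FPKM). Right, the number of genes called higher and lower by the fold of FPKM + 1: 494 and 411 genes changed by less than 1.25 fold, and 93 and 34 by 2 to 4 fold.

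Some genes of the receiving machinery were called. Among ligands, receptors, kinases and STATs of the IL-6 family, 11 of 21 tested genes were higher and 2 lower (median log2 change 0.25). Transcripts of the ligand, Il6, stood at 1.19 and 1.22 FPKM in the untreated libraries and at 5.61 and 4.59 FPKM with IL-6 (log2 change 1.46 ± 0.10, adjusted p = 1.29e-04). Its own receptor chain Il6ra stood at 9.31 and 9.22 FPKM in the untreated libraries and at 8.50 and 8.08 FPKM with IL-6 and was not called (adjusted p = 0.213). The shared chain Il6st rose from 84.7 and 89.5 to 130.0 and 127 FPKM (log2 change 0.55 ± 0.041, adjusted p = 1.86e-04). Osmr, the receptor chain for the sister cytokine oncostatin M, rose from 21.99 and 23.9 to 53.7 and 52.1 FPKM (log2 change 1.17 ± 0.050, adjusted p = 2.38e-05). Stat3 rose from 41.4 and 40.1 to 63.8 and 61.95 FPKM (log2 change 0.62 ± 0.037, adjusted p = 8.03e-05). All 4 called genes named here had both IL-6 libraries above both untreated ones, and each stayed called whichever library was left out.

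Among the brakes of the pathway, SOCS and PIAS proteins and phosphatases, 4 of 17 tested genes were higher and 0 lower (median log2 change 0.10). Socs3, the feedback inhibitor of gp130, stood at 23.5 and 21.5 FPKM in the untreated libraries and at 60.3 and 57.5 FPKM with IL-6 (log2 change 1.35 ± 0.060, adjusted p = 2.87e-05). Ptpn1 and Ptpn2, tyrosine phosphatases that act on Janus kinases and STATs, rose by 0.50 and 0.33 on the log2 scale. The fourth, Socs5, was called at 0.30 (adjusted p = 0.0112), and lost its call without untreated library 2 or IL-6 library 1 (adjusted p 0.0640 to 0.0658). Arid5a, the gene knocked out in the KO cells, rose in WT from 18.7 and 15.9 to 30.9 and 31.0 FPKM (log2 change 0.81 ± 0.10, adjusted p = 0.00240). KO libraries still held Arid5a reads, at 5.51 and 6.85 FPKM untreated and 8.47 and 8.15 FPKM with IL-6; how the gene was disrupted is not given in the sources used here.

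STAT dimers recognise a short palindrome, spelled TTCNNNGAA, in which N is any base. RefSeq promoters on the GRCm38.p6 assembly, taken as the 250 bases before each start site, were searched for that word, which reads the same on both strands. It occurred in 7.03% of 1138 promoters of genes called higher, in 11 of 100 promoters of genes that rose at least 2-fold, in 4.12% of 996 promoters of genes called lower and in 1 of 25 promoters (4.0%) of genes that fell at least 2-fold. The share was 5.87% of 12624 promoters of all tested genes and 7.02% of all 32851 promoters in the table. The stricter word TTCCNGGAA stood in 1.23% of promoters of genes called higher, 0.301% of those lower and 0.958% of those tested. A gene with several start sites enters with each of its promoters, which may overlap. The 100 promoters of 2-fold risers belonged to 68 genes and their 11 matches to 9 genes, and the 25 of 2-fold fallers to 23 genes. The same Sphk1 word, for example, was counted at -41 and at -115 from different start sites. Each match is a description of letters, not of a bound site.

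The promoter stretches below show the word in the feedback gene Socs3, in genes that rose at least 2-fold and in Lrrc17, the 2-fold faller with a match. Except Socs3, Pros1 and Sod2 these genes were chosen after their values were seen, because their promoters hold the word. Each line gives the strand of the gene 5′ to 3′, the word is in capitals, and the coordinates are those of GRCm38.p6.
Socs3, chr11:117969487-117969545, minus strand, word at -154: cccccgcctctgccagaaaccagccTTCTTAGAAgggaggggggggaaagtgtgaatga
Pros1, chr16:62854190-62854248, plus strand, word at -92: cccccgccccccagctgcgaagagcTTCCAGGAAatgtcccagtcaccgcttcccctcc
Sod2, chr17:13007629-13007687, plus strand, word at -185: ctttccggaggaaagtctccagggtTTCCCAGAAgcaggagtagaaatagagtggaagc
Sphk1, chr11:116531771-116531829, plus strand, word at -41: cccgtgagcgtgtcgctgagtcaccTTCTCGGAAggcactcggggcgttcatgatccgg
Sgk1, chr10:21881936-21881994, plus strand, word at -223: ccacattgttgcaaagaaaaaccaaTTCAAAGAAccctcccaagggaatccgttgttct
Tgm1, chr14:55713632-55713690, minus strand, word at -173: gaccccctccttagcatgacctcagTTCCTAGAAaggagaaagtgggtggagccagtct
Tgm1, chr14:55713523-55713581, minus strand, word at -64: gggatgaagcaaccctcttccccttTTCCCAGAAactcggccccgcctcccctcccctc
Sbno2, chr10:80101188-80101236, minus strand, word at -24: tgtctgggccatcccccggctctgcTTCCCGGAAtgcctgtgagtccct
Gcnt2, chr13:40886508-40886564, plus strand, word at -227: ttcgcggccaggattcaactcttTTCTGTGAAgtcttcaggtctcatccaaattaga
Lrrc17, chr5:21543374-21543432, plus strand, word at -128: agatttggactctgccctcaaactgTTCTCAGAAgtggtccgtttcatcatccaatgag

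The genes behind these stretches changed in WT as follows. Pros1, the anticoagulant protein S, rose from 35.0 and 37.4 to 78.3 and 73.1 FPKM, and Sod2, the mitochondrial superoxide dismutase, from 61.5 and 56.3 to 119 and 123 FPKM. Sphk1, which makes sphingosine 1-phosphate, rose from 15.4 and 12.97 to 33.8 and 33.9 FPKM, and the kinase gene Sgk1 from 55.0 and 56.3 to 127 and 131 FPKM. Tgm1, a transglutaminase with a pair of words in 1 promoter, rose from 2.52 and 2.33 to 9.22 and 7.398 FPKM. Sbno2 rose from 55.3 and 52.3 to 119.7 and 117 FPKM and the glycosyltransferase gene Gcnt2 from 4.14 and 4.88 to 10.1 and 10.8 FPKM. Lrrc17 fell from 70.9 and 71.8 to 32.1 and 32.8 FPKM. In none of the 8 did the values of the WT groups overlap.

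Words of other factor families gave shares that can be read the same way, over both strands. An AP-1 word, TGANTCA, stood in 11 of the 100 promoters of genes that rose at least 2-fold, in 5.18% of those of all genes called higher, in 5.22% of those called lower, in 2 of the 25 of 2-fold fallers and in 4.44% of those tested. A C/EBP word, TTNNGNAA, stood in 42 of the 100 promoters of 2-fold risers and in 11 of the 25 of 2-fold fallers, against 29.7% of those of all genes called higher, 27.1% of those called lower and 27.8% of those tested. An NF-kappaB word stood in 1.93% of promoters of genes called higher, 1.10% of those lower and 1.27% of those tested. The CArG box of serum response factor was found in 1.32% of the higher, 1.81% of the lower and 1.14% of the tested. Shares over the 2-fold sets rest on 100 promoters of 68 genes and on 25 promoters of 23 genes. Counted by gene, the AP-1 word stood in 10 of the 68 and 2 of the 23. The C/EBP word stood in 34 of the 68 and 11 of the 23.

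Among the 15 largest rises were genes of secreted defence and scavenger proteins. Serpina3n, an acute-phase inhibitor of serine proteases, stood at 3.35 and 3.19 FPKM in the untreated libraries and at 25.4 and 23.3 FPKM with IL-6 (log2 change 2.57 ± 0.079, adjusted p = 1.72e-05). Kng1, the kininogen from which bradykinin is cut, rose from 1.56 and 1.84 to 12.95 and 11.4 FPKM (log2 change 2.29 ± 0.11, adjusted p = 4.18e-05). Hp, haptoglobin, the scavenger of free haemoglobin, rose from 0.761 and 1.29 to 8.42 and 8.11 FPKM (log2 change 2.21 ± 0.12, adjusted p = 4.87e-05). Saa3, a serum amyloid A, rose from 143 and 134 to 629 and 560.3 FPKM (log2 change 2.09 ± 0.10, adjusted p = 3.31e-05). In these 4 genes the 2 libraries of a treatment lay close together and far from the other treatment. Lcn2, the siderophore-binding lipocalin, rose from 56.8 and 58.8 to 229 and 201 FPKM (log2 change 1.87 ± 0.12, adjusted p = 1.07e-04). Slpi, a secreted antiprotease, rose from 5.98 and 6.53 to 26.4 and 23.3 FPKM (log2 change 1.83 ± 0.077, adjusted p = 2.29e-05).

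Beyond these, the 15 largest rises held genes of other kinds. Fabp4, a fatty acid carrier best known from adipocytes, rose from 6.44 and 7.45 to 28.9 and 32.7 FPKM (log2 change 2.002 ± 0.11, adjusted p = 4.80e-05); the adipocyte markers Adipoq, Cidec, Lep, Retn and Cfd were listed at 0 in the WT libraries, and 1 of 8 adipocyte markers reached 1 FPKM. Gstt4, a glutathione transferase, rose from 0.854 and 1.71 to 9.01 and 8.37 FPKM. Rgcc, a regulator of the cell cycle first described as a complement-response gene, rose from 16.1 and 16.9 to 61.2 and 57.3 FPKM. U90926 rose from 1.66 and 1.54 to 12.1 and 11.8 FPKM. The IL-6 libraries were above the untreated ones in each. Mif-ps, a pseudogene of the cytokine gene Mif, rose from 0.101 and 0.0639 to 2.51 and 3.01 FPKM, and since its reads can be shared with Mif (775 and 749 to 1136 and 1087 FPKM) its value is uncertain.

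**Figure D3:**
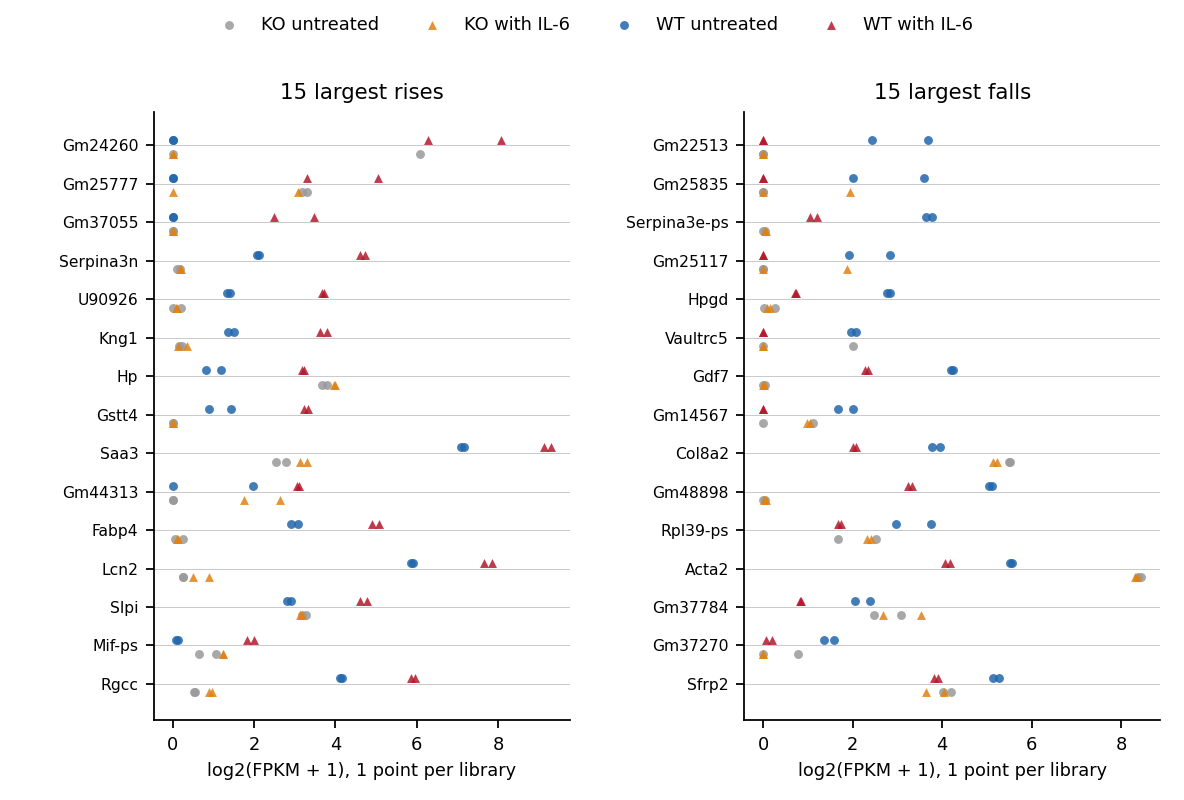
The 15 largest rises and 15 largest falls among called genes, 1 point per library on the log2(FPKM + 1) axis, circles untreated and triangles with IL-6, WT above and KO below in each row. The rows were drawn from called genes whose WT groups do not overlap, so the gap between WT triangles and circles was fixed by that choice. The KO values were not chosen in this way. In KO triangles and circles mostly lie together, and several genes (Serpina3n, Lcn2, Kng1) lie near 0 there.

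The falls took in contractile, matrix and signalling genes. Serpina3e-ps, a pseudogene of the Serpina3 cluster whose reads may be shared with its copies, fell from 11.4 and 12.7 to 1.30 and 1.07 FPKM (log2 change -2.58 ± 0.10, adjusted p = 1.97e-05), in the opposite direction to Serpina3n. Hpgd, the enzyme that inactivates prostaglandins, fell from 5.78 and 6.09 to 0.641 and 0.647 FPKM (log2 change -2.08 ± 0.10, adjusted p = 4.18e-05). Gdf7, a bone morphogenetic protein, fell from 17.9 and 17.2 to 4.06 and 3.83 FPKM (log2 change -1.91 ± 0.074, adjusted p = 1.97e-05). Col8a2, a chain of the short collagen VIII, fell from 14.5 and 12.7 to 3.20 and 3.02 FPKM (log2 change -1.83 ± 0.071, adjusted p = 1.97e-05). For each of them both IL-6 libraries lay below both untreated ones. Acta2, smooth muscle actin and the usual mark of myofibroblasts, fell from 46.1 and 44.6 to 15.7 and 17.1 FPKM (log2 change -1.41 ± 0.052, adjusted p = 1.97e-05). Sfrp2, a secreted Wnt antagonist, fell from 37.6 and 34.4 to 13.1 and 14.1 FPKM (log2 change -1.34 ± 0.13, adjusted p = 7.05e-04).

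Some of the extreme values belong to very short transcripts listed at 0 in one treatment. Gm24260, a small RNA of 107 nt, was listed at 0 in both untreated libraries and at 267 and 76.4 FPKM with IL-6, and Gm25777, of 126 nt, at 0 and then 32.1 and 8.86 FPKM. Gm37055, a transcript of 133 nt that GENCODE classes as TEC (not yet given a gene type), was listed at 0 in both untreated libraries and at 4.58 and 10.2 FPKM with IL-6. Gm44313 stood at 2.91 and 0 FPKM untreated and 7.57 and 7.25 FPKM with IL-6. In the other direction Gm22513 (164 nt) stood at 4.37 and 11.9 FPKM untreated, Gm25835 at 3.04 and 11.1 FPKM and Gm25117 at 6.08 and 2.78 FPKM, and all 3 were listed at 0 with IL-6. The 2 libraries of a group differed by up to several-fold in these genes. Of the 6 beside Gm37055, Gm22513 stayed called with any library left out (adjusted p up to 0.0138), while the largest leave-out adjusted p was 0.135 for Gm24260, 0.124 for Gm25777, 0.163 for Gm44313, 0.142 for Gm25835 and 0.135 for Gm25117. Gm24260 lost its call without any 1 WT library or either KO IL-6 library (adjusted p 0.0530 to 0.135). Gm25777 lost it without either untreated library or IL-6 library 1 (adjusted p 0.0961 to 0.124). Gm44313 lost it without untreated library 2, either IL-6 library or any 1 KO library (adjusted p 0.0653 to 0.163). Gm25835 lost it without untreated library 2, either IL-6 library or either KO untreated library (adjusted p 0.0539 to 0.142). Gm25117 lost it without any 1 WT library or either KO untreated library (adjusted p 0.0516 to 0.135). Pseudogene falls of this kind were Rpl39-ps, from 6.81 and 12.4 to 2.18 and 2.32 FPKM and not called without untreated library 2 or either IL-6 library (adjusted p 0.0621 to 0.0678), Gm14567, from 2.205 and 3.01 FPKM to a listed 0 and not called without untreated library 2 or IL-6 library 2 (adjusted p 0.0503 to 0.0596), and Gm37784, from 3.12 and 4.25 to 0.758 and 0.786 FPKM and not called without any 1 WT library (adjusted p 0.0534 to 0.111).

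To describe functions, 52 lists of genes were counted, each against all genes tested (8.3% higher, 7.41% lower, median change -0.0020). The share called higher was largest in the acute-phase and complement list, and the share called lower in the contractile and basement membrane lists. These are counts of members, and nothing is read from them about a list as such.

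**Figure D4:**
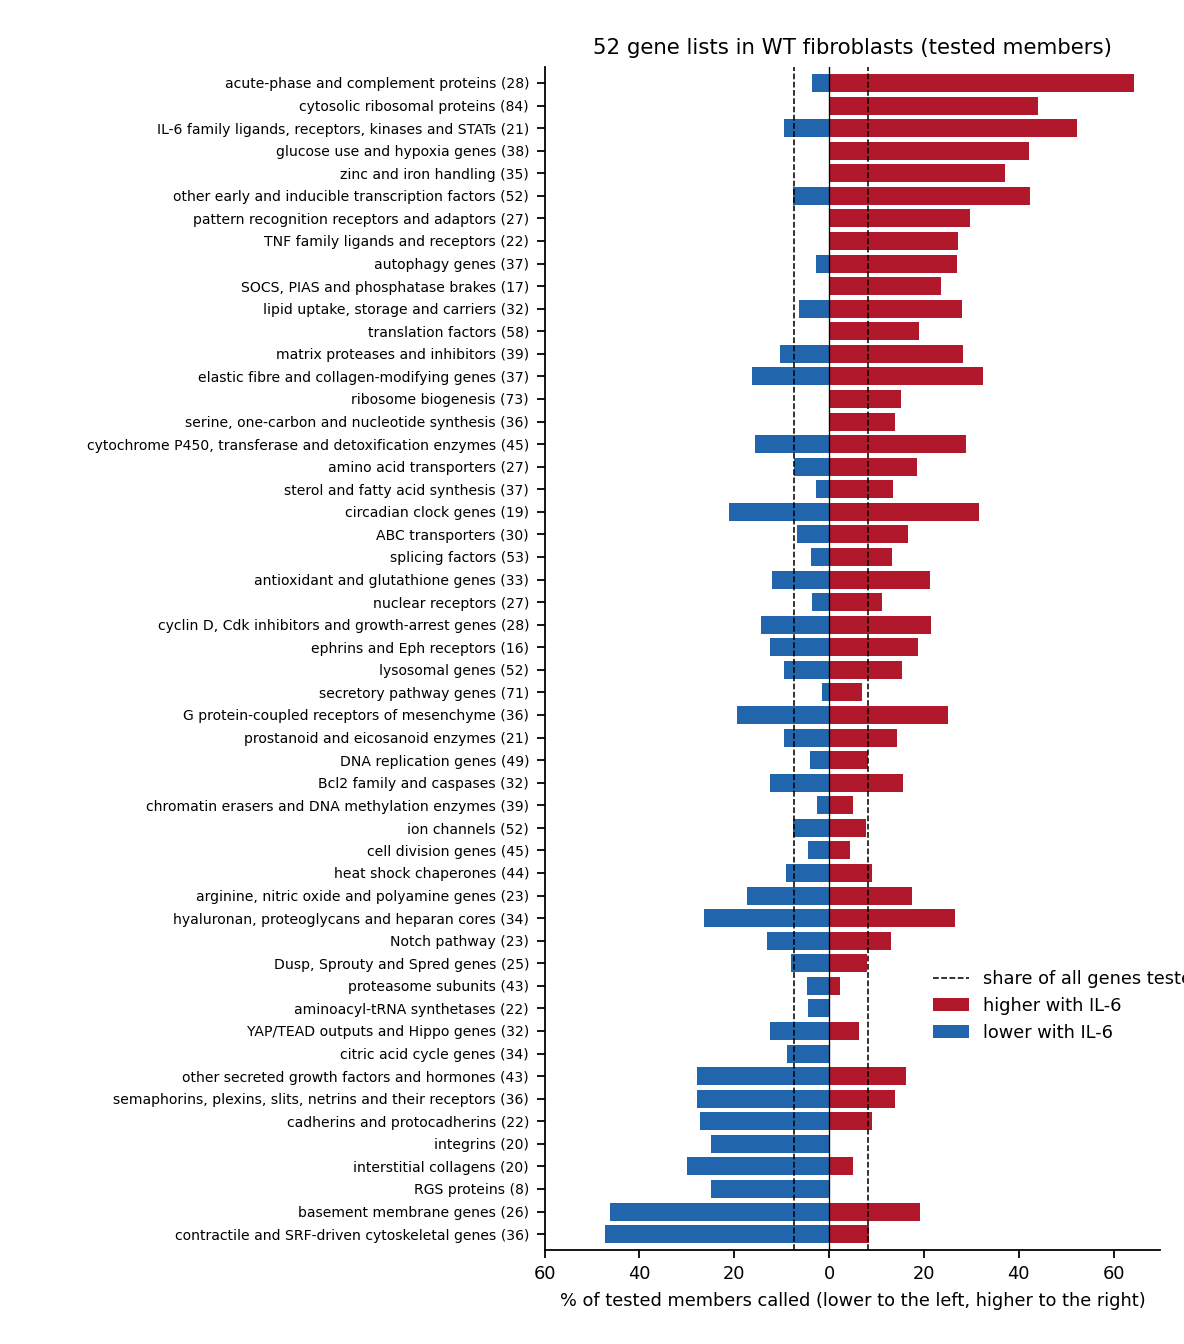
Each row is 1 of 52 gene lists with the number of its tested members; bars give the percentage of those members called higher (right) or lower (left) with IL-6 in WT, and dashed lines mark the shares of all genes tested, 8.3% and 7.41%. Acute-phase and complement proteins reach farthest to the right (18 of 28 tested members) and contractile genes (17 of 36) and basement membrane genes (12 of 26) farthest to the left.

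Secreted defence proteins came first. For acute-phase and complement proteins, 18 of 28 tested genes were higher and 1 lower (median log2 change 0.76), and 16 were called in every leave-out. The lower call ended whichever library was left out. Beside the members already given, Ptx3, the long pentraxin that opsonises microbes, rose from 129 and 141 to 351 and 345 FPKM (log2 change 1.37 ± 0.046, adjusted p = 1.97e-05). Kng2, the second kininogen gene and the near copy of Kng1, rose from 5.09 and 5.29 to 21.4 and 17.01 FPKM, and reads of the pair may be shared. The receptors for bradykinin, cut from these kininogens, were higher too: Bdkrb1 rose from 0.459 and 0.349 to 3.38 and 2.56 FPKM and its partner Bdkrb2 from 1.12 and 1.08 to 3.005 and 2.76 FPKM. Ligand precursors and receptors thus stood above their untreated values in both IL-6 libraries.

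Some inflammatory receptor and ligand genes rose. For TNF family ligands and receptors, 6 of 22 tested genes were higher and 0 lower (median log2 change 0.10). Tnfsf11, the osteoclast-forming cytokine RANKL, rose from 0.982 and 0.817 to 5.11 and 3.51 FPKM (log2 change 1.47 ± 0.16, adjusted p = 0.00104), and Tnfrsf11b, its decoy receptor osteoprotegerin, from 8.17 and 8.91 to 18.6 and 17.5 FPKM (log2 change 1.001 ± 0.067, adjusted p = 1.18e-04). The ligand and its decoy therefore moved the same way. Tnfrsf1a, the main TNF receptor, rose by 0.56 and the ligand gene Tnfsf9 by 0.75 on the log2 scale. For pattern recognition receptors and adaptors, 8 of 27 tested genes were higher and 0 lower (median log2 change 0.10). The adaptor Myd88 rose from 39.1 and 38.0 to 61.7 and 59.0 FPKM and Tmem173, the DNA-sensing adaptor STING, from 46.5 and 50.01 to 91.7 and 91.7 FPKM. Nod1, a sensor of bacterial wall fragments, rose by 0.51 and Irak3, a brake on Toll-like receptors, by 0.77. Among pattern recognition genes, the higher genes numbered 5 without any 1 WT library.

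Transcription factors changed in both directions. For early and inducible factors, 22 of 52 tested genes were higher and 4 lower (median log2 change 0.22). Junb, an AP-1 partner and a known STAT3 target, rose from 65.9 and 61.4 to 154 and 144 FPKM (log2 change 1.22 ± 0.062, adjusted p = 4.18e-05). Hif1a, the hypoxia-regulated factor, rose from 61.9 and 65.1 to 108 and 112 FPKM (log2 change 0.79 ± 0.040, adjusted p = 4.18e-05), and Ier3, an immediate early gene, from 56.4 and 52.6 to 102 and 94.8 FPKM. Sox4, a developmental factor, fell from 18.0 and 17.4 to 9.27 and 9.87 FPKM (log2 change -0.82 ± 0.052, adjusted p = 9.78e-05). In each of the 4 the treatments did not overlap. Among early factors, the higher genes numbered 13 without IL-6 library 1. The lower ones numbered 2 without any 1 WT library.

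Among circadian clock genes, 6 of 19 tested genes were higher and 4 lower (median log2 change 0.085). Nfil3, a repressor of clock output, rose from 25.8 and 25.3 to 58.2 and 58.1 FPKM (log2 change 1.16 ± 0.044, adjusted p = 1.97e-05), and Arntl2, a partner of CLOCK, by 0.89. Per3 fell from 5.63 and 5.99 to 3.92 and 4.03 FPKM and the repressor Bhlhe41 from 1.90 and 1.99 to 0.876 and 0.770 FPKM. Among chromatin erasers and DNA methylation enzymes, 2 of 39 tested genes were higher and 1 lower (median log2 change 0.045): the demethylase Kdm3a rose by 0.39 and the methylcytosine oxidase Tet1 fell from 1.66 and 1.76 to 0.453 and 0.595 FPKM. Among nuclear receptors, 3 of 27 tested genes were higher and 1 lower (median log2 change -0.0022), and none was called in every leave-out. The shares over all genes tested were 8.3% higher and 7.41% lower. Scaled to equal totals the clock list stood at 4 higher and 4 lower, the chromatin list at 1 higher and 3 lower and the nuclear receptors at 2 higher and 2 lower. Among clock genes, the higher genes numbered 3 without untreated library 2 or IL-6 library 2 and 2 without IL-6 library 1. The lower ones numbered 2 without either IL-6 library or either KO untreated library.

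Growth factor genes were called in both directions, where all genes tested stood at 8.3% higher and 7.41% lower. Of other secreted growth factors and hormones, 7 of 43 tested genes were higher and 12 lower (median log2 change -0.0044). Beside Gdf7, Ptn, the heparin-binding growth factor pleiotrophin, fell from 45.7 and 44.2 to 19.8 and 20.2 FPKM (log2 change -1.13 ± 0.046, adjusted p = 2.09e-05), and Tgfb3 from 39.9 and 38.3 to 24.1 and 24.2 FPKM (log2 change -0.67 ± 0.037, adjusted p = 6.07e-05). Among YAP/TEAD outputs and Hippo genes, 2 of 32 tested genes were higher and 4 lower (median log2 change 0.0077). Ccn2, connective tissue growth factor, fell from 24.8 and 22.9 to 9.96 and 11.3 FPKM (log2 change -1.10 ± 0.066, adjusted p = 8.03e-05) and Ccn1 from 70.2 and 67.0 to 44.6 and 47.8 FPKM, while Sav1, a Hippo scaffold, rose by 0.38. Both IL-6 libraries were below both untreated libraries in Ptn, Tgfb3, Ccn2 and Ccn1. Among growth factors, the lower genes numbered 7 without IL-6 library 2. Among the YAP list, the lower genes numbered 2 without untreated library 1.

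Guidance and adhesion molecules followed. Of semaphorins, plexins, slits, netrins and their receptors, 5 of 36 tested genes were higher and 10 lower (median log2 change -0.011). Sema3c, a secreted guidance cue, fell from 89.8 and 89.4 to 41.0 and 38.1 FPKM (log2 change -1.16 ± 0.059, adjusted p = 4.18e-05) and Sema3a from 30.3 and 30.4 to 17.9 and 16.6 FPKM. The receptor gene Nrp2 fell by 0.37. Of cadherins and protocadherins, 2 of 22 tested genes were higher and 6 lower (median log2 change -0.11). Cdh3, P-cadherin, fell from 6.02 and 5.18 to 3.07 and 2.87 FPKM and Fat4, a giant cadherin, from 4.04 and 4.96 to 2.003 and 1.87 FPKM. Of integrins, 0 of 20 tested genes were higher and 5 lower (median log2 change -0.061), and Itga10 fell by 0.59. Ephrins and Eph receptors had 3 higher and 2 lower of 16 tested, with none lower without untreated library 1 or IL-6 library 2. The Notch pathway had 3 higher and 3 lower of 23 tested, with none lower without IL-6 library 2 and 1 lower without either untreated library or KO IL-6 library 1. Among guidance genes, the higher genes numbered 2 without untreated library 1 or IL-6 library 1 and 3 without IL-6 library 2. The lower ones numbered 6 without untreated library 1 or either IL-6 library and 5 without untreated library 2. Among integrins, the lower genes numbered 3 without untreated library 1, 2 without untreated library 2 or IL-6 library 2 and 1 without IL-6 library 1.

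Surface receptors of mesenchyme were called in both directions. For all genes tested the shares were 8.3% higher and 7.41% lower. Of G protein-coupled receptors, 9 of 36 tested genes were higher and 7 lower (median log2 change 0.017). Ackr3, a scavenging chemokine receptor, rose from 20.96 and 20.9 to 43.7 and 41.3 FPKM, Ptgfr, the prostaglandin F receptor, from 8.69 and 8.95 to 17.3 and 19.4 FPKM, and the adhesion receptor Adgrl2 from 33.8 and 38.5 to 67.5 and 64.9 FPKM. Of Dusp, Sprouty and Spred genes, many of which restrain MAP kinases, 2 of 25 tested genes were higher and 2 lower (median log2 change -0.0058). That is 8.0% in each direction, near the shares of all genes. Dusp6 rose from 4.75 and 5.65 to 10.1 and 9.28 FPKM and Spry1 fell from 2.14 and 2.54 to 1.24 and 1.03 FPKM. Of RGS proteins, which end G protein signals, 0 of 8 tested genes were higher and 2 lower (median log2 change -0.10). Of ion channels, 4 of 52 tested genes were higher and 4 lower (median log2 change 0.018), 7.69% in each direction and also near the shares of all genes. Gja1, the gap junction protein connexin 43, rose from 81.7 and 81.3 to 221 and 233 FPKM (log2 change 1.47 ± 0.037, adjusted p = 6.13e-06), and Piezo2, a force-gated channel, fell from 16.2 and 17.1 to 6.32 and 6.19 FPKM (log2 change -1.28 ± 0.12, adjusted p = 6.56e-04). Among G protein-coupled receptors, the lower genes numbered 2 without any 1 WT library and 4 without either KO IL-6 library. Among ion channels, the lower genes numbered 2 without IL-6 library 2.

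Several genes of the contractile apparatus fell. Of contractile and serum response factor-driven cytoskeletal genes, 3 of 36 tested genes were higher and 17 lower (median log2 change -0.17). Beside Acta2, Tagln, the actin-binding protein transgelin, fell from 58.3 and 59.7 to 25.8 and 29.1 FPKM (log2 change -1.08 ± 0.062, adjusted p = 6.64e-05), and Actg1, cytoplasmic gamma actin, from 351 and 331 to 240.3 and 257 FPKM (log2 change -0.46 ± 0.047, adjusted p = 9.30e-04). Csrp2, a muscle LIM protein, fell from 83.4 and 83.2 to 54.3 and 55.4 FPKM (log2 change -0.59 ± 0.033, adjusted p = 5.78e-05). No untreated value of the 4 was as low as any IL-6 value. Among contractile genes, the lower genes numbered 11 without untreated library 1 and 10 without IL-6 library 1.

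Matrix genes changed in both directions. Of interstitial collagens, 1 of 20 tested genes were higher and 6 lower (median log2 change -0.20), and scaled to equal totals 10 were lower. Col1a2, a chain of collagen I, fell from 530.0 and 518 to 356 and 337 FPKM (log2 change -0.60 ± 0.043, adjusted p = 1.64e-04), Col8a1 fell from 40.7 and 41.1 to 23.4 and 21.4 FPKM, and Col3a1, collagen III, rose from 197 and 199.6 to 309 and 266 FPKM (log2 change 0.53 ± 0.067, adjusted p = 0.00238). Of basement membrane genes, 5 of 26 tested genes were higher and 12 lower (median log2 change -0.23). Npnt, nephronectin, fell from 4.01 and 3.82 to 1.42 and 1.53 FPKM, Nid2, nidogen 2, from 7.66 and 6.74 to 3.68 and 3.68 FPKM, and Smoc1 rose from 0.733 and 0.785 to 2.38 and 2.38 FPKM. Values of the treatments did not overlap in any of the 6. Among basement membrane genes, the higher genes numbered 3 without either untreated library or IL-6 library 1.

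Elastic fibre genes had more calls higher than lower. Of elastic fibre and collagen-modifying genes, 12 of 37 tested genes were higher and 6 lower (median log2 change 0.066). The 4 named members are all fibulins: Fbln1 rose from 115 and 108 to 209.7 and 197 FPKM, Fbln2 from 72.5 and 72.4 to 117 and 118 FPKM, Efemp1 by 0.75 and Efemp2 by 0.78. Of hyaluronan genes, proteoglycans and heparan cores, 9 of 34 tested genes were higher and 9 lower (median log2 change -0.058). Dcn, decorin, a small proteoglycan that binds collagen and TGF-beta, rose from 157 and 175 to 465 and 394 FPKM (log2 change 1.36 ± 0.081, adjusted p = 7.46e-05). Its relatives Aspn and Omd fell, Aspn from 227 and 228 to 104 and 104 FPKM (log2 change -1.12 ± 0.047, adjusted p = 2.29e-05) and Omd from 86.1 and 90.1 to 33.3 and 35.7 FPKM (log2 change -1.33 ± 0.085, adjusted p = 1.03e-04). Sdc4, a heparan sulphate core, rose by 0.75. Scaled to equal totals the proteoglycan list stood at 8 higher and 10 lower. Among elastic fibre genes, the higher genes numbered 7 without IL-6 library 2. Among proteoglycans, the higher genes numbered 5 without untreated library 2.

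Matrix-cutting enzymes and an inhibitor rose together. Of matrix proteases and inhibitors, 11 of 39 tested genes were higher and 4 lower (median log2 change 0.087). Mmp13, a collagenase, rose from 1.76 and 1.94 to 7.52 and 6.62 FPKM (adjusted p = 6.36e-05), Mmp3, stromelysin, from 3.49 and 4.23 to 11.5 and 10.4 FPKM (log2 change 1.30 ± 0.093, adjusted p = 1.59e-04), and Mmp19 from 12.9 and 12.9 to 28.9 and 25.2 FPKM. Timp1, a tissue inhibitor of metalloproteinases, rose from 113 and 115 to 339 and 335 FPKM (log2 change 1.56 ± 0.034, adjusted p = 4.05e-06). The inhibitor stood at a higher FPKM than any of the 3 enzymes in every WT library. Among matrix proteases, the lower genes numbered 2 without IL-6 library 2.

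Every call in metal handling was higher. Of zinc and iron handling genes, 13 of 35 tested genes were higher and 0 lower (median log2 change 0.10), and 12 were called in every leave-out. Fth1, the heavy chain of the iron store ferritin, rose from 2650.0 and 2703 to 5879 and 6002 FPKM (log2 change 1.15 ± 0.040, adjusted p = 1.97e-05). The metallothioneins Mt2 and Mt1, small zinc-binding proteins, rose from 344 and 379 to 1215 and 1082 FPKM and from 272 and 289.7 to 582 and 539 FPKM. Steap1 and Steap2, of the metalloreductase family, rose from 34.5 and 33.4 to 91.7 and 92.04 FPKM and from 52.04 and 50.2 to 83.7 and 81.6 FPKM. IL-6 libraries lay above untreated ones in all 5. Ferritin has processed pseudogenes, and how shared reads were split is not given in the sources used here.

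Some genes of sugar use rose. Of glucose use and hypoxia genes, 16 of 38 tested genes were higher and 0 lower (median log2 change 0.20). Pfkfb3, which makes the activator of phosphofructokinase, rose from 11.3 and 11.8 to 32.5 and 30.7 FPKM (log2 change 1.38 ± 0.054, adjusted p = 1.99e-05). The lactate carriers Slc16a1 and Slc16a3 rose from 28.5 and 31.5 to 62.4 and 59.4 FPKM and from 47.3 and 48.1 to 84.1 and 82.6 FPKM, and the glycolytic enzyme gene Aldoa by 0.36. Of citric acid cycle and related genes, 0 of 34 tested genes were higher and 3 lower (median log2 change -0.045), and all 3 calls (Mdh1, Idh3a and Me1) ended in some leave-outs. Mdh1 and Me1 encode cytosolic enzymes outside the cycle itself. Scaled to equal totals 7 of these genes were lower. Mdh1 was not called without untreated library 2 or IL-6 library 1 (adjusted p 0.0640 to 0.0687). Idh3a was not called without either untreated library or IL-6 library 1 (adjusted p 0.0715 to 0.0927). Me1 was not called without any 1 WT library (adjusted p 0.0525 to 0.121). Among glucose genes, the higher genes numbered 10 without IL-6 library 1.

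Lipid and prostanoid genes were selective. Of lipid uptake, storage and carrier genes, 9 of 32 tested genes were higher and 2 lower (median log2 change 0.043). Beside Fabp4, Angptl4, an inhibitor of lipoprotein lipase, rose from 11.8 and 12.3 to 42.4 and 37.0 FPKM (log2 change 1.64 ± 0.082, adjusted p = 4.18e-05), Apol6 from 9.27 and 8.03 to 28.1 and 25.2 FPKM and Fabp5 by 0.61. Of sterol and fatty acid synthesis genes, 5 of 37 tested genes were higher and 1 lower (median log2 change 0.033): Elovl5 and Ebp rose by 0.27 and 0.31, and Scd2 fell by 0.26. Of prostanoid and eicosanoid enzymes, 3 of 21 tested genes were higher and 2 lower (median log2 change 0.042). The prostaglandin-making pair Ptgs2 (cyclooxygenase 2) and Ptges rose from 10.5 and 11.4 to 19.2 and 17.5 FPKM and from 17.4 and 15.5 to 28.2 and 28.6 FPKM, while Hpgd, which breaks the product down, fell as given above. Scaled to equal totals the prostanoid list stood at 3 higher and 4 lower. Among sterol genes, the higher genes numbered 3 without untreated library 1.

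Nitrogen and detoxification enzymes gave a mixed picture. Of arginine, nitric oxide and polyamine genes, 4 of 23 tested genes were higher and 4 lower (median log2 change -0.013). Nos2, inducible nitric oxide synthase, rose from 6.46 and 6.98 to 17.8 and 14.9 FPKM (log2 change 1.16 ± 0.10, adjusted p = 3.24e-04), and Ass1, which rebuilds arginine, fell from 15.2 and 14.9 to 10.7 and 9.57 FPKM (log2 change -0.53 ± 0.068, adjusted p = 0.00255). Of serine, one-carbon and nucleotide synthesis genes, 5 of 36 tested genes were higher and 0 lower (median log2 change 0.028); the folate enzyme Aldh1l1 rose from 2.41 and 2.87 to 8.46 and 7.90 FPKM and Ctps, which makes CTP, by 0.63. Of cytochrome P450, transferase and detoxification enzymes, 13 of 45 tested genes were higher and 7 lower (median log2 change -0.064), against 11 higher and 12 lower when scaled to equal totals. Cyp1b1 rose from 40.8 and 41.5 to 69.8 and 72.4 FPKM and Mgst1 from 49.3 and 44.9 to 82.9 and 88.8 FPKM, while Gsta4 fell from 19.5 and 17.5 to 9.42 and 9.87 FPKM. Of antioxidant and glutathione genes, 7 of 33 tested genes were higher and 4 lower (median log2 change 0.013); beside Sod2, the extracellular dismutase Sod3 rose from 75.0 and 74.7 to 118 and 115 FPKM. Among arginine genes, the lower genes numbered 2 without either untreated library or IL-6 library 2. Among detoxification enzymes, the higher genes numbered 8 without untreated library 2 or IL-6 library 1. The lower ones numbered 3 without untreated library 1 or IL-6 library 1 and 4 without IL-6 library 2 or either KO IL-6 library. Among antioxidant genes, the lower genes numbered 1 without untreated library 2 and 2 without IL-6 library 1.

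Transporters of other goods were counted as well. Of amino acid transporters, 5 of 27 tested genes were higher and 2 lower (median log2 change 0.030): Slc7a5, the large neutral amino acid carrier, fell from 24.1 and 23.3 to 15.4 and 16.4 FPKM, and Slc38a2, Slc7a6 and Slc1a3 rose by 0.33, 0.45 and 0.49. Of ABC transporters, 5 of 30 tested genes were higher and 2 lower (median log2 change 0.0084), and no call held in every leave-out. Among amino acid transporters, the higher genes numbered 3 without IL-6 library 2. Among ABC transporters, the higher genes numbered 2 without untreated library 1 and 1 without untreated library 2 or either IL-6 library.

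The translation machinery showed many small calls, fewer of which held under other estimates of the spread or with 1 WT library left out. Of 84 cytosolic ribosomal proteins, 37 were higher and 0 lower (median log2 change 0.15); Rps16 rose from 533 and 517 to 614 and 624 FPKM. Among ribosomal proteins, the higher genes numbered 13 without untreated library 1, 8 without untreated library 2, 20 without IL-6 library 1, 5 without IL-6 library 2 and 21 without either KO IL-6 library. Scaled to equal totals 14 were higher and 1 lower, and after quantile normalization 3 higher and 1 lower. For ribosome biogenesis, 11 of 73 tested genes were higher and 0 lower (median log2 change 0.073). Among ribosome biogenesis genes, the higher genes numbered 2 without either untreated library, 6 without IL-6 library 1 and 1 without IL-6 library 2. For translation factors, 11 of 58 tested genes were higher and 0 lower (median log2 change 0.044), and scaled to equal totals 4 were higher and 4 lower. Among translation factors, the higher genes numbered 4 without untreated library 1, 2 without untreated library 2 or IL-6 library 2, 5 without IL-6 library 1 and 6 without either KO IL-6 library. Ribosomal proteins have many processed pseudogenes, so reads may be shared. Of aminoacyl-tRNA synthetases, 0 of 22 tested genes were higher and 1 lower (median log2 change 0.018), against 4 lower when scaled to equal totals, and no call held in every leave-out.

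Protein folding, secretion and breakdown had calls in both directions. All genes tested stood at 8.3% higher and 7.41% lower. The shares were 2.33% and 4.65% for proteasome subunits, 9.09% and 9.09% for chaperones and 7.04% and 1.41% for secretory genes. They were 15.4% and 9.62% for lysosomal genes and 27.0% and 2.70% for autophagy genes. Of proteasome subunits, 1 of 43 tested genes were higher and 2 lower (median log2 change -0.034), against 1 higher and 8 lower when scaled to equal totals, and no call held in every leave-out. Of heat shock chaperones, 4 of 44 tested genes were higher and 4 lower (median log2 change 0.027); the small chaperone gene Cryab fell by 0.39. Of secretory pathway genes, 5 of 71 tested genes were higher and 1 lower (median log2 change 0.030), against 0 higher and 2 lower when scaled to equal totals. Of lysosomal genes, 8 of 52 tested genes were higher and 5 lower (median log2 change -0.020), against 7 higher and 11 lower when scaled to equal totals. Lgmn, the asparagine-cutting protease legumain, rose from 130.3 and 129 to 200.4 and 201 FPKM, and Ctsb, cathepsin B, from 311 and 317 to 423 and 418 FPKM. Of autophagy genes, 10 of 37 tested genes were higher and 1 lower (median log2 change 0.044), against 5 higher and 1 lower when scaled to equal totals; Ulk1, the kinase that starts autophagy, rose by 0.39. Among chaperones, the higher genes numbered 2 without either untreated library and 0 without IL-6 library 2. The lower ones numbered 2 without either untreated library or IL-6 library 1. Among secretory genes, the higher genes numbered 0 without untreated library 1 or IL-6 library 1, 3 without untreated library 2 or any 1 KO library and 1 without IL-6 library 2. Among lysosomal genes, the lower genes numbered 3 without either untreated library or IL-6 library 2. Among autophagy genes, the higher genes numbered 4 without untreated library 1 or IL-6 library 2 and 3 without untreated library 2 or IL-6 library 1.

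Most proliferation genes were not called. The shares of all genes tested were 8.3% higher and 7.41% lower. Of cell division genes, 2 of 45 tested genes were higher and 2 lower (median log2 change -0.051), and of DNA replication genes, 4 of 49 tested genes were higher and 2 lower (median log2 change 0.064). No call among cell division genes held whichever library was left out, and no lower call among DNA replication genes held in any leave-out. Scaled to equal totals these stood at 0 higher and 6 lower and at 0 higher and 2 lower. Of cyclin D, Cdk inhibitor and growth-arrest genes, 6 of 28 tested genes were higher and 4 lower (median log2 change 0.0022), against 2 higher and 6 lower when scaled to equal totals. Ccnd1, cyclin D1, which drives entry into the cell cycle, fell from 19.2 and 18.4 to 6.70 and 7.47 FPKM (log2 change -1.30 ± 0.067, adjusted p = 4.25e-05), and the inhibitor gene Cdkn2b fell from 85.1 and 79.2 to 58.3 and 56.8 FPKM. Of the Bcl2 family and caspases, 5 of 32 tested genes were higher and 4 lower (median log2 change 0.017), against 5 higher and 5 lower when scaled to equal totals. Casp4, an inflammatory caspase, rose from 4.86 and 5.31 to 12.8 and 10.5 FPKM (log2 change 1.05 ± 0.088, adjusted p = 3.35e-04), and the survival kinase gene Pim3 from 18.1 and 16.4 to 34.7 and 33.1 FPKM (log2 change 0.94 ± 0.062, adjusted p = 1.14e-04). Of splicing factors, 7 of 53 tested genes were higher and 2 lower (median log2 change 0.027), against 4 higher and 6 lower when scaled to equal totals. Among replication genes, the higher genes numbered 1 without untreated library 1 or any 1 KO library and 0 without untreated library 2 or either IL-6 library. Among the cyclin list, the higher genes numbered 1 without untreated library 1, 0 without untreated library 2 or IL-6 library 1 and 2 without IL-6 library 2. Among the Bcl2 list, the lower genes numbered 2 without untreated library 1, 0 without untreated library 2 or IL-6 library 2 and 1 without IL-6 library 1 or any 1 KO library. Among splicing factors, the higher genes numbered 3 without either untreated library or IL-6 library 1 and 2 without IL-6 library 2.

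A few genes held a large share of the change in summed FPKM, which is per length and so not an amount of RNA. The mean total over all genes was also 22389 FPKM larger in the IL-6 libraries. Summed over called genes, the IL-6 libraries gained 26595 FPKM over the genes called higher and changed by -10957 FPKM over the genes called lower. The 8 largest gains made up 23.0% of the gain and Fth1 alone 12.3%. After it and Mt2 came Saa3, Il1rn, Mif, Ifitm2, Mt1 and Cxcl5. Il1rn, the natural antagonist of interleukin 1, rose from 264 and 261 to 646 and 642 FPKM, Ifitm2, a membrane protein against virus entry, from 709.8 and 713 to 1055 and 1028 FPKM, and the chemokine gene Cxcl5 from 700.0 and 729 to 1009.8 and 968 FPKM. The 8 largest losses made up 28.4% of the loss. Vim, the intermediate filament vimentin, fell from 2288 and 2183 to 1765 and 1746 FPKM, Bgn, biglycan, from 869.5 and 867 to 735 and 719.6 FPKM and Ptma, prothymosin alpha, from 1191 and 1172 to 1005 and 1011 FPKM, all without a lost leave-out, as did Col1a2. The main transcript Ptma-201 moved less, from 1044 and 1020 to 997 and 1003 FPKM. Its share of the gene went from 87.3% to 99.2%, so most of the Ptma fall lay in other transcripts. How sure that split is was not tested. B2m, the light chain of class I MHC, went from 2929 and 3104 to 2472 and 2139 FPKM and was not called without either untreated library, IL-6 library 2 or either KO untreated library (adjusted p 0.0625 to 0.165). H2-K1, a class I heavy chain, went from 1542 and 1619 to 1221 and 1009.7 FPKM and was not called without either untreated library or IL-6 library 2 (adjusted p 0.0599 to 0.0902). Bst2 went from 1229 and 1169 to 945 and 742 FPKM and was not called without either untreated library (adjusted p 0.0635 to 0.0862). Lgals1, galectin 1, went from 4478 and 4279 to 3680.4 and 3862 FPKM and was not called without any 1 WT library or either KO untreated library (adjusted p 0.0534 to 0.161).

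By gene class in GENCODE M21, 1067 protein-coding genes were higher and 947 lower of 11913 tested. Of 657 long noncoding RNAs tested, 31 were higher and 33 lower. Genes that GENCODE classes as TEC were counted in this class, Gm37055 above and Gm37270 below among them. In either direction, 16.9% of the protein-coding genes and 9.74% of the long noncoding RNAs were called, against 15.7% of all genes tested. Gm6093 rose from 3.25 and 3.86 to 12.3 and 11.6 FPKM (log2 change 1.51 ± 0.090, adjusted p = 7.46e-05) and Gm13293 from 0.481 and 0.385 to 3.18 and 2.40 FPKM (log2 change 1.40 ± 0.14, adjusted p = 9.79e-04). Gm48898 fell from 32.1 and 33.4 to 8.99 and 8.50 FPKM (log2 change -1.79 ± 0.069, adjusted p = 1.97e-05). Both IL-6 libraries lay on 1 side of both untreated libraries in these 3. Smaller falls were Gm17501, from 6.25 and 6.00 to 2.79 and 3.21 FPKM, and Gm42778, from 3.17 and 3.98 to 1.54 and 1.66 FPKM. Gm37270 fell from 2.01 and 1.54 to 0.148 and 0.0356 FPKM but was not called without untreated library 1 or IL-6 library 2 (adjusted p 0.0589 to 0.0598). Of the rises, Gm15655 was not called without untreated library 2 (adjusted p = 0.0558), and Gm15640 was not called without either untreated library, IL-6 library 1 or either KO untreated library (adjusted p 0.0612 to 0.170). Of 874 pseudogenes tested, 28 were higher and 14 lower (4.81% called).

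Some called genes lay next to each other. In the order of tested genes along the chromosomes, 51 runs of 3 or 4 neighbours were called in the same direction. Of these, 31 were higher and 20 lower, and they held 163 of the 2150 called genes. Of all genes tested, 8.3% were called higher and 7.41% lower. How many runs such shares give without any link between neighbours was not worked out, so nothing is read from the number. The runs below were chosen after their values were seen. On chromosome 11, from 100780731 to 100939540 on GRCm38, Stat5b, Stat5a and Stat3 were higher together, by 0.25, 0.43 and 0.62. Stat5b was not called without any 1 WT library or either KO IL-6 library (adjusted p 0.0658 to 0.153). On chromosome 15, from 6708379 to 7197489, the receptor genes Osmr and Lifr were higher beside Rictor, by 1.17, 0.78 and 0.27. Rictor was not called without untreated library 1, either IL-6 library or any 1 KO library (adjusted p 0.0522 to 0.139). On chromosome 10, from 75774115 to 75822543, the glutathione transferase genes Gstt3, Gstt1 and Gstt4 were higher by 0.45, 0.84 and 2.11. Lower runs included the leucine-rich proteoglycan genes Aspn, Omd and Ogn on chromosome 13, from 49544443 to 49624501, with log2 changes of -1.12, -1.33 and -0.75. Gm48898 lay beside Gdf7 on chromosome 12, from 8208107 to 8301954 with Ldah, and both fell (log2 changes -1.79 and -1.91); reads of overlapping genes cannot be told apart where counting by strand is not stated.

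The files give transcripts, and the split within a gene rarely moved. Among 7400 genes at 10 FPKM or more in both WT treatments, the share of a transcript moved by over 25 percentage points between all pairs of libraries in 2 genes, named here after their values were seen. Transcript Diaph3-201, of a formin that nucleates actin, held 2.59% and 3.95% of its gene's FPKM untreated and 37.2% and 29.6% with IL-6, while the gene as a whole was not called (adjusted p = 0.629). BC031181-203 held 25.9% and 26.2% untreated and was listed at 0 with IL-6. How sure such splits are varied by gene: for U90926 the transcript U90926-201 stood at 12.1 FPKM in IL-6 library 1 and 0.066 in IL-6 library 2, and the gene's other main transcript at 0.0090 and 11.8, although the gene's totals were alike. Il6-201 stood at 0.364 and 0.306 FPKM untreated and 2.89 and 3.13 FPKM with IL-6.

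The same treatment was given to Arid5a-/- fibroblasts, and the 2 contrasts share no library. There 3 genes (0.0219%) were called with IL-6 by limma (1025 at an unadjusted p under 0.05), Cebpd, Igfbp3 and Spp1, named here after their values were seen. The acute-phase factor gene Cebpd rose by 0.69 in KO and 0.83 in WT, the growth factor binder Igfbp3 by 0.86 and 1.504, and Spp1, osteopontin, by 0.58 and 0.44. Among the 104 genes that rose at least 2-fold in WT the median change was 1.32 in WT and 0.08 in KO, and 74 of the 104 were positive in KO. For the 40 that fell at least 2-fold, the medians were -1.27 in WT and -0.03 in KO, and 25 were negative in KO. Of all genes tested 49.9% were positive in KO. Some of these genes were low in KO: 34 of the 104 and 15 of the 40 stood under 1 FPKM in all 4 KO libraries. Of the 70 risers at 1 FPKM or more in a KO library, the medians were 1.21 in WT and 0.18 in KO, and 54 were positive in KO; of the 25 such fallers, they were -1.28 and -0.08, with 17 negative.

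**Figure D5:**
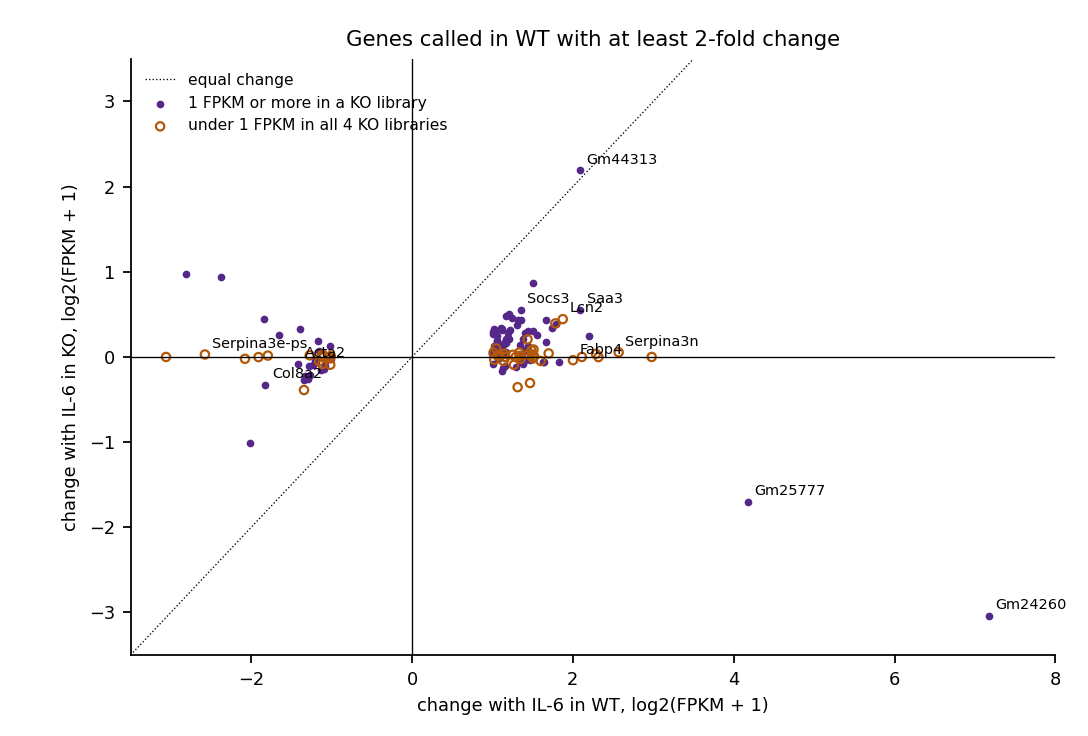
Each point is 1 of the 144 genes called in WT with a change of at least 2-fold, placed by its change with IL-6 in WT (horizontal) and in KO (vertical), both on the log2(FPKM + 1) scale; the dotted line marks equal change and open circles are genes under 1 FPKM in all 4 KO libraries. Most points lie near 0 on the vertical axis: the medians in KO are 0.08 for rises and -0.03 for falls.

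The difference between the 2 responses was tested as well, KO change minus WT change, and 830 genes (6.06%) were called, with 2916 at an unadjusted p under 0.05. With any 1 of the 8 libraries left out the count lay between 383 (without KO untreated library 2) and 523 (without untreated library 1). That test shares the WT libraries with the WT contrast, so each comparison's own values are given side by side. Gja1 stood at 158 and 156 FPKM untreated and 155 and 159 FPKM with IL-6 in KO, which lies between the WT values of 81.7 and 81.3 untreated and 221 and 233 with IL-6, and the difference was -1.47 ± 0.052 (adjusted p = 9.04e-05). Timp1 stood at 155 and 160.2 FPKM untreated and 189.8 and 187 FPKM with IL-6 in KO (difference -1.30 ± 0.048, adjusted p = 9.04e-05), against 113 and 115 and then 339 and 335 FPKM in WT. Ptx3 stood at 80.2 and 78.0 FPKM untreated and 80.7 and 80.5 FPKM with IL-6 in KO (difference -1.34 ± 0.066, adjusted p = 3.65e-04). Its WT values without IL-6 were already above all 4 KO values. Socs3 stood at 16.02 and 16.9 FPKM untreated and 23.9 and 25.4 FPKM with IL-6 in KO, where the change was 0.55, against 1.35 in WT (difference -0.80 ± 0.085, adjusted p = 0.00277).

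For several of the largest WT rises the KO level left little to compare. Serpina3n stood at 0.128 and 0.0773 FPKM untreated and 0.132 and 0.158 FPKM with IL-6 in KO, and Lcn2 at 0.184 and 0.198 FPKM untreated and 0.418 and 0.851 FPKM with IL-6. Saa3 stood at 5.91 and 4.83 FPKM untreated and 7.81 and 8.80 FPKM with IL-6, below every WT value. Hp was the other way round, at 11.8 and 12.9 FPKM untreated and 14.6 and 14.9 FPKM with IL-6 in KO, above its WT values under either treatment. Slpi, at 7.98 and 8.63 FPKM untreated and 8.07 and 7.74 FPKM with IL-6 in KO, lay above the untreated WT values and well below those with IL-6 in all 4 libraries. Serpina3e-ps stood at 0 and 0.0231 FPKM untreated and 0.0237 and 0.0406 FPKM with IL-6 in KO. Among the falls, Acta2 stood at 332 and 351 FPKM untreated and 315 and 329 FPKM with IL-6 and Col8a2 at 44.4 and 44.8 FPKM untreated and 34.1 and 36.7 FPKM with IL-6 in KO, both above all 4 WT values. The KO levels thus lay on either side of the WT ones, and their part in the difference between the responses was not tested.

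By function, the difference was called for these numbers of genes, against 6.06% of all genes tested. Of 28 acute-phase and complement genes 14 were called in KO minus WT, of 21 IL-6 family genes 9, of 35 zinc and iron genes 11, of 38 glucose genes 12, of 39 matrix proteases and inhibitors 14, and of 43 growth factor genes 13. Of 36 contractile genes 10 and of 26 basement membrane genes 7 were called. These lists are among those with the larger shares, and others stood below 6.06%. The count was 3 of 84 ribosomal proteins, 0 of 27 nuclear receptors, 0 of 20 integrins and 0 of 43 proteasome subunits. It was also 0 of 49 DNA replication genes and 0 of 45 cell division genes. The same WT libraries enter these counts and those of the WT calls.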

How the data were processed

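RNA of 8 libraries was sequenced, 2 for each of WT and Arid5a-/- fibroblasts without and with IL-6. Per the labels' protocols, total RNA came from an RNeasy kit and was turned into libraries by the TruSeq stranded mRNA method. HISAT2, Cufflinks 2.2.1 and GRCm38.p6 are named in the submitters' processing notes; the authors deposited FPKM values per transcript. Whether counting used strand, and how reads shared by gene copies were split, is not given in the sources used here.

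Transcript FPKM were summed to 55358 genes by removing the final transcript number. The 13693 genes that reached 1 FPKM in 2 or more libraries were tested on log2(FPKM + 1), pseudocount 1, with limma 3.58.1 (R 4.3.3) fitted over all 8 libraries with 1 mean per group, a mean-variance trend and Benjamini-Hochberg adjustment over all genes tested, threshold 0.05. The contrasts were IL-6 against untreated in WT, in KO, and KO minus WT. The spread is estimated from 4 residual degrees of freedom. Depth was estimated from the steps between low FPKM values, with the depth and fragment length that put most of them near whole fragments. At that choice 93.7% to 95.7% lay within 0.1 of a whole fragment. Chance gives 20% at a fixed setting, which is not the chance level of a share made as large as possible. No count test was run. Mitochondrial genes held 1.30% to 2.16% of FPKM.

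Gene classes and positions are from GENCODE M21 (53385 genes matched by name) and promoters from RefSeq on GRCm38.p6. Tables used Python 3.11.15 with pandas 2.3.3 and numpy 2.4.6, figures matplotlib 3.10.9, and the model was tested on simulated data.

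The members and the lists were chosen with earlier results of these data known. Named genes are Il6, Stat3, Socs3 and Arid5a; the 15 largest rises and falls among called genes with non-overlapping groups and a mean of at least 1 FPKM in the higher group; 5 long noncoding rises and falls of the same kind; the 8 largest gains and losses of mean FPKM; up to 4 called members of each list by p, with further members where a pair or a defining member needs them; and the 5 smallest p in KO minus WT. Some of them are left to counts. Genes outside this rule are marked as chosen after their values were seen. Alternatives were a pseudocount of 0.1, no filter, a filter of 5 FPKM, equal totals, quantile normalization, a replicate block, WT libraries alone, no trend and each library left out.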

Additional observations from a re-analysis of the deposited data

Results flagged for a closer look

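The change with IL-6 differed between KO and WT by the limma test of the difference itself, KO change minus WT change, for 830 of the 13693 genes tested. The 5 with the smallest p among those also called in WT were Gja1 (-1.47 on the log2 scale), Timp1 (-1.30), Serpina3n (-2.51), Ptx3 (-1.34) and Serpina3e-ps (2.60). Gja1 stood at 158 and 156 FPKM untreated and 155 and 159 FPKM with IL-6 in KO and Timp1 at 155 and 160.2 FPKM untreated and 189.8 and 187 FPKM with IL-6. Serpina3n stood at 0.128 and 0.0773 FPKM untreated and 0.132 and 0.158 FPKM with IL-6 in KO and Serpina3e-ps at 0 and 0.0231 FPKM untreated and 0.0237 and 0.0406 FPKM with IL-6, so both were close to 0 there under either treatment. Ptx3 stood at 80.2 and 78.0 FPKM untreated and 80.7 and 80.5 FPKM with IL-6 in KO.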

How the results depend on the processing

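The design has 2 libraries a group, 4 residual degrees of freedom and no statement of separate cultures, and many calls did not hold with 1 library left out. A fit without 1 library has less data, so a lost call does not show that it rested on that library. With each of the 8 libraries left out in turn, genes called in WT ranged from 1165 to 1774, higher from 636 to 967, lower from 514 to 807, and KO minus WT from 383 to 523. Leaving out a library of a group leaves 1 library, which is assumed to vary like the other groups. With only the WT libraries fitted, 938 genes were called, 560 higher and 378 lower, 918 of them among the 2150. Equal totals gave 1530 lower, so that 34.8% of calls were higher against 52.8%. The other settings (pseudocount 0.1, no filter, 5 FPKM filter, quantile normalization, no trend) kept all 4 counts within 1.5 times. Of the named genes, 66 lost their call with only the WT libraries fitted, 30 without the filter, 21 without the trend, 14 after quantile normalization, 13 with equal totals and 6 with pseudocount 0.1. No named gene reversed under these settings; the cause was not tested. The same-numbered libraries of WT deviated together by a correlation over genes of 0.055 and those of KO by -0.0049, so the numbers were not taken as pairs; with a replicate block 1380 genes were called, 616 of them lower, and 340 in KO minus WT. Low genes are limited by depth: 1 FPKM is close to the filter and the log2(FPKM + 1) scale shrinks their change.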
